A study of Mus musculus with 2 samples.

Results

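The mouse mitochondrial genome encodes 37 genes, and all 37 had an entry in the deposited gene tables of embryonic hindbrain. They were taken as the genes whose symbol starts with mt-: 13 mRNAs, 2 rRNAs and 22 tRNAs, out of 43346 Ensembl genes in each table. Total RNA longer than 200 nt was profiled from the hindbrain of embryos of strain B6NCrl at embryonic day 11.5, without treatment. The series held 1 group of 2 libraries, each from a pool of male and female embryos: 109 embryos in pool 1 and 88 in pool 2. The RNA input was 10 ng a library, with ERCC spike-ins, which are synthetic RNAs added as a reference. The labels give no second condition, so the values are levels in these 2 pools, and a difference between the pools, at 1 library a pool, carries no p-value. Hoxa2 and Hoxb2, which mark the hindbrain, stood at 48.7 ± 0.827 and 47.6 ± 1.77 TPM (transcripts per length, scaled to a fixed total; mean ± SD, n = 2). The other listed genes of hindbrain position were lower: Hoxd3 at 38.5 ± 1.87, Gbx2 at 24.3 ± 4.64, Hoxb1 at 5.575 ± 0.856 and Egr2 at 0.88 ± 0.156.

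The mitochondrial genome is a small circle that is transcribed from both strands into long precursors. Its tRNA genes sit between the other genes like punctuation, and cutting them out frees the rRNAs and mRNAs. The mRNAs encode core subunits of the respiratory chain: NADH dehydrogenase (complex I), cytochrome b (complex III), cytochrome c oxidase (complex IV) and the ATP synthase (complex V). The rRNAs and tRNAs serve the mitochondrion's own ribosomes, and all other parts of this machinery come from nuclear genes. Fragments of the mitochondrial genome have also been inserted into nuclear chromosomes during evolution, and a read from such a stretch can match both places.

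On GRCm38, 28 of the 37 genes lie on the plus strand of the reference and 9 on the minus strand, namely mt-Nd6 and 8 tRNAs. Of the 37, 15 had reads: the 13 mRNAs and the 2 rRNAs. The 22 tRNAs, from 59 to 75 nt long, had an effective length of 0 in both tables, because effective length was the length minus 99 nt. A gene with no effective length cannot be assigned a read, and none of the 2218 Ensembl genes with an effective length of 0 had one. Their listed value of 0, which by counting error alone would allow up to 6.62e-06% of reads in pool 1 and 7.27e-06% in pool 2, is therefore no measurement of tRNA. The size selection above 200 nt also lies above the length of a mature tRNA. The longest, mt-Tl1 (leucine; mitochondrial chromosome, 2676 to 2750), the shortest, mt-Ts2 (serine; 11613 to 11671), and mt-Te (glutamate; minus strand, 14071 to 14139) show how little sequence there is to hold a read. The anticodon is in capitals.
mt-Tl1: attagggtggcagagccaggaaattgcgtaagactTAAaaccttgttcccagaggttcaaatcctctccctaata
mt-Ts2: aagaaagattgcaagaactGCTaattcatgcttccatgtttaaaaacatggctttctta
mt-Te: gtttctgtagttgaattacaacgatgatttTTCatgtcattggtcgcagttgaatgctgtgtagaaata

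Of the 13 mRNAs, 7 had a near-identical nuclear copy that took up reads in the tables. A search of GENCODE vM21 transcripts found 17 nuclear genes with at least 100 aligned bases of at least 90% identity to a mitochondrial transcript, of which 15 were in the deposited tables. Of these, 7 matched at 99% or more. They lie side by side on the minus strand of chromosome 1, between 24611535 and 24616197, and are annotated as unprocessed pseudogenes. Of the 7, 5 were identical to the mitochondrial gene over the whole aligned part, and the remaining pairs each differed at a single base. The 8 more divergent copies in the tables held 25.4 reads in pool 1 and 30.65 in pool 2, whereas the 7 near-identical copies held 176198 and 171634.

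The sequences show how little separates a pair. The start of mt-Nd3 (complex I) and that of its copy Gm28438 differ by T3C, counted from 1 at the 5′ end of the mitochondrial gene, with the base that differs in capitals. Inside mt-Co1 (complex IV) the difference from Gm29216 is A1066T, and the stretch shown is 1063 to 1102 of the gene and 10 to 49 of the copy. The end of mt-Co3 (complex IV) and that of Gm28437 differ in length alone: the copy is annotated without the final base, in capitals.
mt-Nd3: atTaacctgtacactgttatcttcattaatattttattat
Gm28438: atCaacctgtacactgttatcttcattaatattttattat
mt-Co1: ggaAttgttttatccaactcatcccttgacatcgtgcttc
Gm29216: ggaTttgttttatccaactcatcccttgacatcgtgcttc
mt-Co3: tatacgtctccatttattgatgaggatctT
Gm28437: tatacgtctccatttattgatgaggatct

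Most reads that fit mt-Co3 were listed on the nuclear copy. mt-Co3 held 19112 expected counts (estimated reads) in pool 1 and 22324 in pool 2. Gm28437 held 107260 and 97919, which is 84.9% and 81.4% of the reads of the pair. mt-Co2, another core subunit of complex IV, held 15563 and 18165 reads against 30813 and 26388 on Gm28661. In mt-Nd3 the copy had 68.5% and 72.4% of the pair's reads. In mt-Nd4l, a small subunit of complex I, it had 93.2% and 96.4%, with 185 and 101 reads left on the mitochondrial gene. Shares were lower for mt-Co1 (22.8% and 24.3% on Gm29216, whose aligned part covers 483 bases at the end of the gene) and mt-Atp6 of the ATP synthase (10.2% and 14.2% on Gm10925). mt-Nd4 kept nearly all its reads, with 4.45 and 4.26 on Gm28439, although this copy is identical to the gene over 876 bases.

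**Figure D1:**
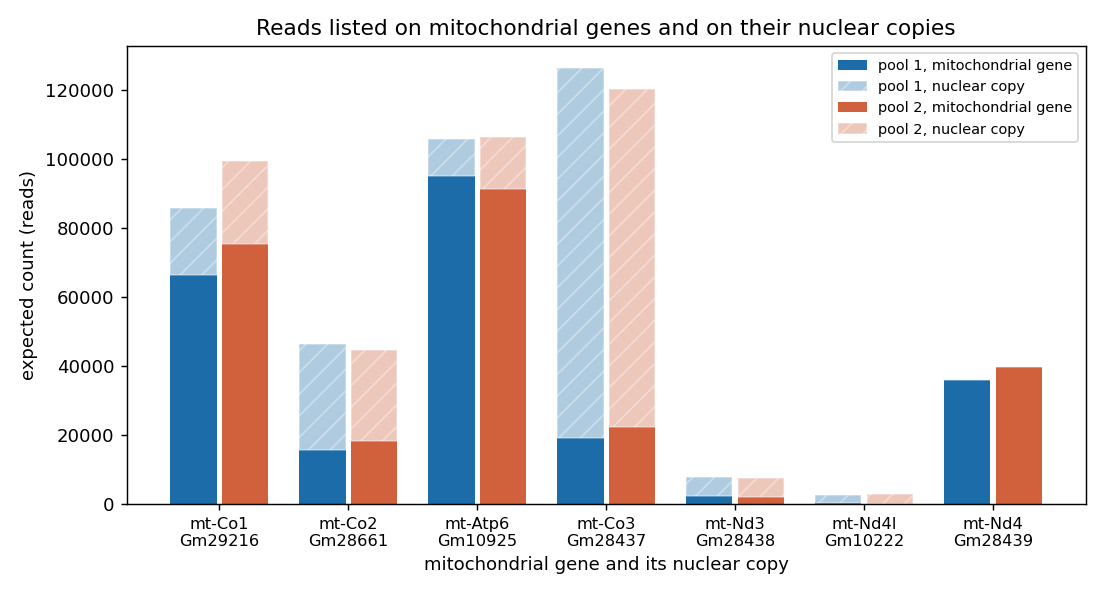
Expected counts (reads) listed on 7 mitochondrial genes (solid) and on their near-identical nuclear copies (hatched, stacked on top), for pool 1 (blue) and pool 2 (orange). On mt-Co3, mt-Co2, mt-Nd3 and mt-Nd4l the hatched part is the larger one in both pools, and on mt-Nd4 it is too small to see.

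The deposited tables hold a second estimate of each count, the posterior mean with its SD, and it divided several pairs differently. For mt-Co3 the posterior mean was 46214 reads in pool 1 with a posterior SD of 32032, and 44892 in pool 2 with an SD of 29146. These are 2.42 and 2.01 times the expected counts. For mt-Co2 it was 22685 (SD 7091) and 23884 (SD 9120), or 1.46 and 1.31 times the expected counts. For mt-Atp6 it was lower than the expected count, at 81939 (SD 15954) and 80746 (SD 15975). For mt-Nd4l in pool 2 the posterior SD of 430 exceeded the mean of 315. The sum of a pair did not depend on the estimate: over the 7 pairs and both pools the sums differed by at most 0.00032%. Whether any read came from the nuclear copy was not tested.

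**Figure D2:**
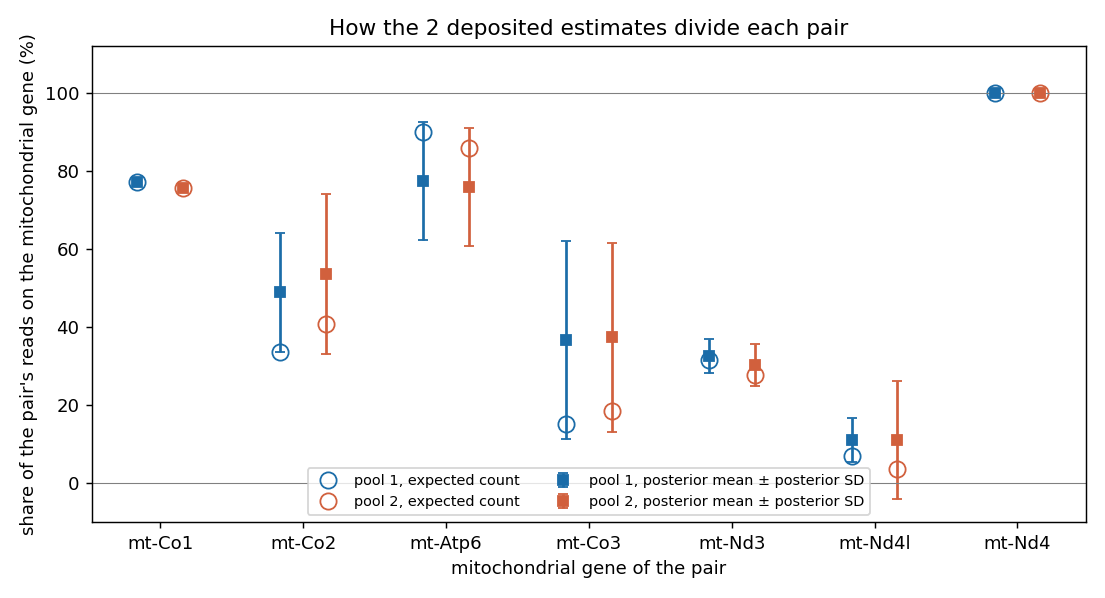
Share of a pair's reads listed on the mitochondrial gene (%), by expected count (open circles) and by posterior mean (squares, with bars of 1 posterior SD), for pool 1 (blue) and pool 2 (orange). The bars are long for mt-Co3, mt-Co2 and mt-Atp6 and, in pool 2, for mt-Nd4l, and too short to see for mt-Co1 and mt-Nd4.

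The most abundant members were among the most abundant genes of the tissue. Pairs of values give pool 1 before pool 2. By deposited TPM mt-Atp6 (5555 and 5553; mitochondrial chromosome, 7927 to 8607) had rank 4 of all Ensembl genes in both pools and mt-Atp8 (4763 and 4953; 7766 to 7969) rank 7. Both encode subunits of the membrane part of the ATP synthase. mt-Cytb, the cytochrome b of complex III, stood at 2347 and 2472 TPM (14145 to 15288). mt-Nd1 of complex I stood at 1875 and 1975 (2751 to 3707), and mt-Co1, the catalytic subunit of complex IV, at 1558 and 1841 (5328 to 6872).

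A middle group of 3 mRNAs lay close together by deposited TPM. mt-Co3 stood at 949 and 1153 TPM, mt-Nd4 of complex I at 955 and 1102, and mt-Co2 at 905 and 1099, so that their ranges over the pools overlapped, although mt-Co2 was the lowest of them in each pool. By the deposited posterior mean TPM their pool values did not overlap, with mt-Co3 at 2249 and 2273, mt-Co2 at 1293 and 1416 and mt-Nd4 at 936.1 and 1080. The deposited intervals around these means did overlap. In pool 1 they ran from 599 to 5179 for mt-Co3, 749 to 1979 for mt-Co2 and 927 to 946 for mt-Nd4. Below these 3 mRNAs by deposited TPM, mt-Nd2 stood at 471 and 545 TPM (3914 to 4951). mt-Nd6, the mRNA of the minus strand, stood at 317 and 441, mt-Nd5, the longest of the 13, at 320 and 372, and mt-Nd3 at 333 and 292. These 3 overlapped as well, and mt-Nd4l was the lowest by far at 31.8 and 18.1. Of the 12 neighbouring pairs in this order, 8 had ranges over the 2 pools that did not overlap. These ranges leave out the division of reads between gene and copy. In pool 1 the deposited interval of mt-Atp6 (3501 to 5825 TPM) holds that of mt-Atp8 (4596 to 4747).

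With the reads of the nuclear copies added to their gene, the order was another one. Each sum was put on the TPM scale of the mitochondrial gene, so these values give it all reads of the pair. mt-Co3 went from 1051 ± 145 TPM to 6242 ± 43.3, level with mt-Atp6 at 6328 ± 203, and mt-Co2 from 1002 ± 137 to 2695 ± 0.372, above mt-Cytb. mt-Co1 stood at 2224 ± 292, mt-Nd3 at 1057 ± 2.92 and mt-Nd4l at 486 ± 29.7, which is 19.5 times its listed level. The highest mRNA was 18.6 ± 1.67 times the lowest with copies added, against 241 ± 93.6 times without. The genes with no near-identical copy in the tables (mt-Rnr1, mt-Rnr2, mt-Nd1, mt-Nd2, mt-Atp8, mt-Nd5, mt-Nd6 and mt-Cytb) kept their values. Of the 12 neighbouring pairs, 7 were now apart by their ranges over the pools.

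**Figure D3:**
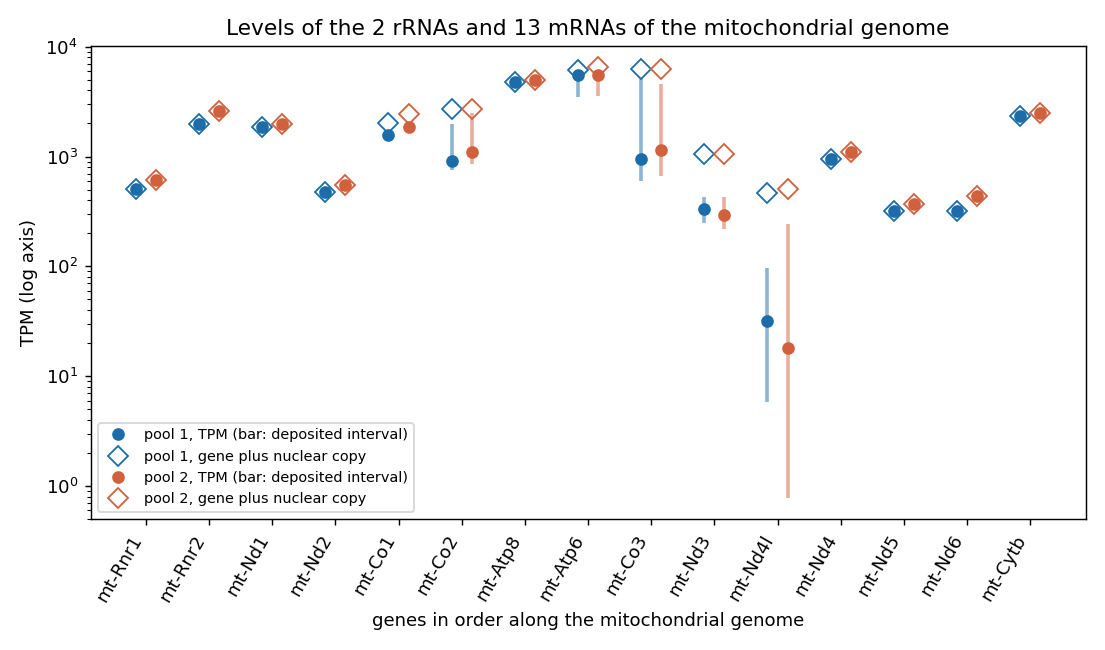
TPM on a log axis of the 2 rRNAs and 13 mRNAs in order along the mitochondrial genome, for pool 1 (blue) and pool 2 (orange). Filled circles are the deposited TPM, vertical bars the deposited interval, and open diamonds the gene plus its nuclear copy. The diamonds leave the circles most for mt-Nd4l, mt-Co3, mt-Nd3 and mt-Co2, and the bar of mt-Nd4l in pool 2 runs from 0.784 to 242.

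The deposited intervals were wide for 5 of the 7 genes with a copy. For these (mt-Co2, mt-Atp6, mt-Co3, mt-Nd3 and mt-Nd4l) and for none of the other members with reads the upper bound was more than 1.5 times the lower one in both pools. For mt-Co3 in pool 1 the interval ran from 599 to 5179 TPM. For mt-Cytb it ran from 2284 to 2318 in the same pool. The intervals lie around the posterior mean, and the deposited TPM was above the upper bound for 9 of the 15 members in each pool, as in mt-Rnr1 in pool 1 (509.7 against 508.7) and mt-Cytb in pool 1 (2347 against 2318).

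Neighbours on the genome shared bases. mt-Atp8 and mt-Atp6 overlap by 43 bases (7927 to 7969), and mt-Nd4l and mt-Nd4 by 7 (10167 to 10173). Each of these pairs is known to be carried on a shared mRNA. On the opposite strands, mt-Nd5 and mt-Nd6 overlap by 14 bases at their ends (13552 to 13565). The overlap is in capitals, with both genes of a pair written 5′ to 3′ on their own strand. No source used here says whether the counting used strand. The posterior SD of the count was 0 for mt-Nd5 and for mt-Nd6 in both pools, so the deposited estimate divided no reads between these genes.
mt-Atp8: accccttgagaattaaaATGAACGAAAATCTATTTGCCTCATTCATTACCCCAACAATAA
mt-Atp6: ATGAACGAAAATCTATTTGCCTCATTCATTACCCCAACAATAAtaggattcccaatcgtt
mt-Nd4l: aatctcaacctactacaATGCTAA
mt-Nd4: ATGCTAAaaattattcttccctca
mt-Nd5: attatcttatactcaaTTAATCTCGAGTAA
mt-Nd6: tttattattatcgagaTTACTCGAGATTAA

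Of the pairs carried on a shared mRNA, mt-Nd4 and mt-Nd4l were closer in level once the copies were added, and mt-Atp6 and mt-Atp8 slightly further apart. By deposited TPM mt-Atp6 was 1.14 ± 0.0320 times mt-Atp8, and 1.30 ± 0.00570 times with copies. mt-Nd4 was 30.02 times mt-Nd4l in pool 1 and 60.9 times in pool 2, and 2.11 ± 0.0850 times with copies. mt-Atp6 and mt-Co3, which follow each other with no tRNA gene between them, were 5.34 ± 0.736-fold apart by deposited TPM. With copies their ratio was 1.01 ± 0.0395. Effective length weighs heavily on the shortest genes: mt-Atp8 counts 105 of its 204 bases and mt-Nd4l 198 of 297.

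By complex, the 2 mRNAs of the ATP synthase made up 49.4 ± 1.75% of the summed TPM of the 13 mRNAs. Without mt-Atp8 and mt-Nd4l, the shortest mRNAs, the summed TPM of complex V over that of complex I was 1.24 instead of 2.31. The 7 of complex I made up 21.4 ± 0.452%, the 3 of complex IV 17.8 ± 1.43% and mt-Cytb 11.4 ± 0.130%. With copies added, complex IV (36.6 ± 0.456%) stood level with the ATP synthase (36.7 ± 0.168%). Complex I then took 18.8 ± 0.608% and mt-Cytb 7.90 ± 0.0167%. On both scales complex I had the lowest median per gene, at 387 ± 76.5 TPM as deposited and 508 ± 52.5 with copies.

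The mRNA of the minus strand was among the least abundant. mt-Nd6 held 3920 and 5231 reads, and its TPM was 0.362 ± 0.0406 times the median of the 12 mRNAs of the other strand, or 0.182 ± 0.0262 times with copies. Against mt-Nd5, which it overlaps, the ratio was 1.09 ± 0.136, and their ranges overlapped. As the strand setting of the counting is not given, the values of each gene may hold reads of both strands. The strands differ in base composition. In all 12 plus-strand mRNAs C was more frequent than G, with a G content of 5.88% to 16.1%. In mt-Nd6 G made up 28.1% and C 5.97%. Total GC content of the 13 ranged from 31.9% in mt-Atp8 to 41.1% in mt-Nd4l.

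Coding ends and starts were unusual by the standard of nuclear genes. Of the 13 mRNAs, 10 had a whole number of codons and 3 (mt-Co3, mt-Nd4 and mt-Cytb) ended 1 base after the last full codon. Such ends are known to be completed to a stop codon by the poly(A) tail. That of mt-Co3 is shown above with the copy, and those of mt-Nd4 and mt-Cytb are given here, with the base after the last full codon in capitals. An ATG start was annotated for 9 of the 13, ATA, ATT or ATC for 3, and GTG for mt-Nd1.
mt-Nd4: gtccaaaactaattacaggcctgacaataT
mt-Cytb: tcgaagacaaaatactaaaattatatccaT

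The large rRNA was above the median mRNA per length and the small one below it (median of the 13, 1025 ± 108 TPM). mt-Rnr2, the large-subunit rRNA (1094 to 2675), stood at 1966 and 2589 TPM. mt-Rnr1, the small-subunit rRNA (70 to 1024), stood at 510 and 610 TPM. Neither has a near-identical copy in the tables. mt-Rnr2 was 4.05 ± 0.276 times mt-Rnr1, although both lie next to each other on the same precursor. The summed TPM of the rRNAs was 0.134 ± 0.0178 times that of the 13 mRNAs, and 0.0928 ± 0.0136 times with copies. No source used here says whether rRNA was removed before sequencing.

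As a share of the library, the 37 members held 500381 of 45340440 expected counts in pool 1 and 545704 of 41261544 in pool 2. With the 7 near-identical copies the sums were 676579 and 717337, or 1.49% and 1.74% of the library. The Wilson 95% intervals of these shares were 1.489% to 1.496% and 1.735% to 1.743%. They cover counting error only, and those of the pools did not overlap. Of the reads that fit the mRNAs or their copies, 401809 of 578007 in pool 1 and 422444 of 594077 in pool 2 were listed on a mitochondrial gene.

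Relative to the median gene, 13 of the 15 members with reads were higher in pool 2. Scaled to the spike-ins, 14 of the 15 were lower there, as were 13870 of the 14942 genes whose mean TPM reached 1. The ratio is the log2 of pool 2 over pool 1, with 1 added to each TPM, minus that of the median gene (-0.11). The median of the 15 was 0.32 on this scale and -0.25 when scaled to the spike-ins, where the median gene stood at -0.52. None was over 1.5-fold higher in pool 2, against 4.35% of the 14942 genes whose mean TPM reached 1. mt-Nd4l was over 1.5-fold higher in pool 1, against 1.63% of genes. None of the 15 was over 2-fold apart, against 1.7% of genes in either direction, 1.09% higher in pool 2 and 0.609% higher in pool 1.

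mt-Nd6 lay furthest towards pool 2 (relative log2 ratio 0.58, or 1.496-fold), followed by mt-Rnr2 (0.51), mt-Co3 and mt-Co2 (0.39 each), mt-Rnr1 (0.37) and mt-Co1 (0.35). The central 95% of the 1448 genes whose mean TPM reached 100 lay between -0.29 and 0.28. mt-Nd5 (0.33), mt-Nd2 (0.32) and mt-Nd4 (0.32) were just above that range. mt-Nd1 and mt-Cytb (0.18 each), mt-Atp8 (0.16), mt-Atp6 (0.11) and mt-Nd3 (-0.08) were within it. mt-Nd4l, with a mean TPM under 100, stood at -0.67. Over all 14942 genes whose mean TPM reached 1 the central 95% ran from -0.49 to 0.74, which holds every member with reads but mt-Nd4l.

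For 4 of the 7 genes with a nuclear copy, the pool ratio of the gene and that of the pair lay well apart. In mt-Nd4l the mitochondrial gene had 0.547 times as many reads in pool 2 as in pool 1, while the pair had 1.05 times as many. In mt-Nd3 these ratios were 0.845 and 0.965, in mt-Co3 1.17 and 0.952, and in mt-Co2 1.17 and 0.961. They lay closer together in mt-Atp6 (0.961 and 1.01) and mt-Co1 (1.14 and 1.16), and in mt-Nd4 both were 1.11. These ratios are of reads and not scaled to depth, and pool 2 had fewer reads in all (41261544 against 45340440). With copies added, the relative log2 ratio was 0.23 for mt-Nd4l, 0.11 for mt-Nd3, 0.09 for mt-Co3 and 0.11 for mt-Co2. All 15 were then above the median gene, with a median of 0.23, and none was over 1.5-fold apart.

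**Figure D4:**
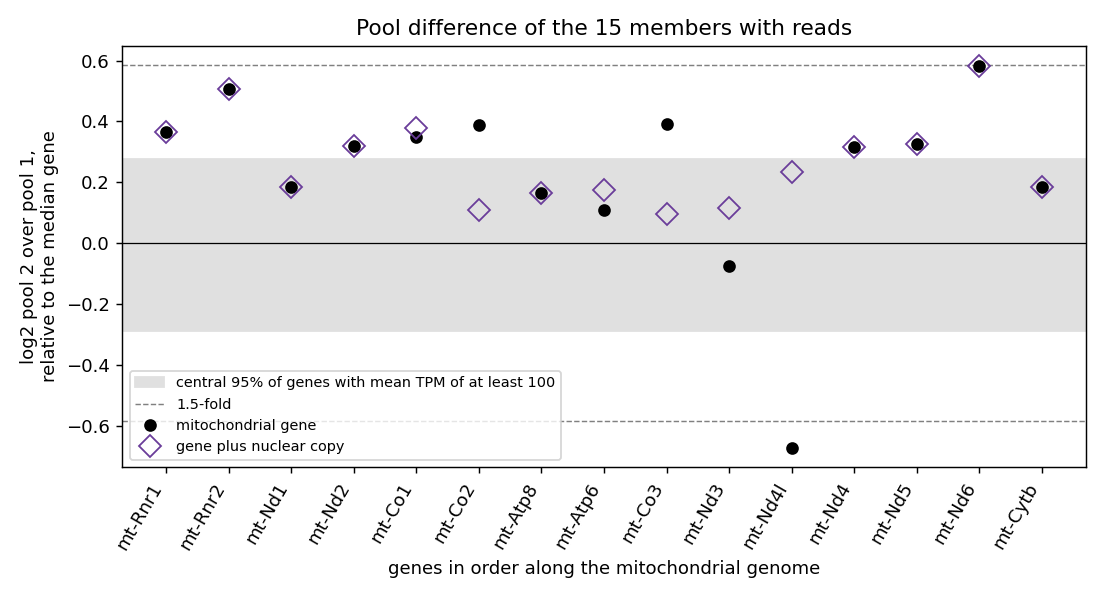
Log2 ratio of pool 2 to pool 1 relative to the median gene, for the 15 members with reads in genome order. Black points are the mitochondrial gene alone, open diamonds the gene plus its nuclear copy, the grey band the central 95% of genes whose mean TPM reached 100, and dashed lines 1.5-fold. The diamonds of mt-Co2, mt-Co3, mt-Nd3 and mt-Nd4l lie inside the band, and mt-Nd6 and mt-Rnr2 are the highest points. Not drawn is the ratio scaled to the spike-ins, with the median gene (-0.52 on that scale) not taken off. There, 14 of the 15 members lay below 0, as did 13870 of the 14942 genes whose mean TPM reached 1.

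Other features moved between the same pools. Spike-ins took 7.41% and 10.7% of expected counts. The summed TPM of 5 RNAs retained in the nucleus (Malat1, Miat, Snhg11, Kcnq1ot1 and Neat1) was 2935 in pool 1 and 4865 in pool 2. Most of it came from Malat1 (2872 and 4761). Of the 4 of these RNAs above a mean TPM of 1, 3 (Malat1, Miat and Snhg11) were over 1.5-fold higher in pool 2, against 4.35% of all genes. The summed TPM of 6 skeletal muscle genes was 82.8 and 46.7. Of the 5 above a mean TPM of 1, 3 (Actc1, Acta1 and Myog) were over 1.5-fold higher in pool 1, against 1.63% of all genes. The sums of 6 neuron genes were 1803 and 1584 and those of 6 erythroid genes 14200 and 13384, with none over 1.5-fold apart. The 6 progenitor genes summed to 2353 and 2127, mostly from Vim and Fabp7, while their median was 127 and 83.3. Of these 6, only Hes5 was over 1.5-fold higher in pool 1 (202 and 109 TPM, relative log2 ratio -0.78), and Sox2 stood at -0.57. No gene of these lists was at 0. In these bulk samples fewer cells of a type and less RNA per cell cannot be told apart. The part of these features in the pool difference was not tested.

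Nuclear genes that transcribe, process and translate mitochondrial RNA, or encode the other subunits of the complexes, were all measured. In 9 lists holding 155 such genes, the mean TPM reached 1 for all 155, and their median relative log2 ratio was -0.05. None was over 1.5-fold apart between the pools, against 5.98% of all genes in either direction. That share covers all genes whose mean TPM reached 1. For genes whose mean TPM reached 100, as did the medians of the subunit lists, the central 95% lay between -0.29 and 0.28, inside 1.5-fold. The 10 transcription genes had a median of 21.7 ± 0.700 TPM. Tfam, which packages and bends the promoter DNA, led them at 68.1 ± 0.905, followed by Mterf3 (60.2 ± 0.262) and Mterf2 (24.8 ± 2.29), with Mterf1b lowest (2.33 ± 0.693).

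Among 29 genes of RNA processing and stability (median 19.2 ± 1.25 TPM), Slirp, a partner of the mRNA stabiliser Lrpprc, was highest at 208 ± 26.6. Hsd17b10, a subunit of the enzyme that cuts tRNA 5′ ends, stood at 123 ± 10.4, and Grsf1, an RNA granule protein, at 74.9 ± 12.03. The tRNA-modifying enzyme Gtpbp3 was lowest at 2.69 ± 0.134. The 13 genes of replication and the nucleoid (median 15.96 ± 2.88) ran from the single-strand binding protein Ssbp1 (120 ± 9.74), Tfam and Atad3a (54.9 ± 8.10) down to Primpol (6.10 ± 0.106).

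The 14 translation factors had a median of 25.8 ± 2.63 TPM. Mrpl58, a release factor of the mitochondrial ribosome, stood at 170.5 ± 18.9, the elongation factors Tufm at 101 ± 10.7 and Tsfm at 55.6 ± 1.75, and the translational activator Taco1 at 7.32 ± 1.06. The 20 genes of tRNA charging had a median of 16.4 ± 2.17. Lars2, the mitochondrial leucine ligase, stood apart from the other 19 at 618 and 828 TPM, with a relative log2 ratio of 0.53. Why it stood apart was not tested. Rars2 (51.8 ± 5.71) came next and Mars2 (1.94 ± 0.0919) last.

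Nuclear subunits of the complexes that the 13 mRNAs help to build had lower medians per gene than their mitochondrial partners in each complex. Medians were 197 ± 13.2 TPM for 36 nuclear subunits of complex I, 303 ± 24.2 for 9 of complex III, 561 ± 26.7 for 11 of complex IV and 409 ± 26.6 for 15 of complex V. The mitochondrial medians were 387 ± 76.5, 2409 ± 88.8 (mt-Cytb alone), 1051 ± 145 and 5206 ± 66.5 as deposited. With copies they were 508 ± 52.5, 2409 ± 88.8, 2695 ± 0.372 and 5593 ± 169. In complex I, Ndufc1 (516 ± 31.2), Ndufab1 (485 ± 50.9) and Ndufb9 (359 ± 32.7) were the most abundant and Ndufb4 (38.4 ± 0.0141) the least. In complex III, Uqcrq (416 ± 42.8), Uqcr10 (391 ± 33.3) and Uqcr11 (341 ± 28.8) led and Uqcrc2 (144 ± 13.5) was lowest. In complex IV, Cox4i1 (713 ± 34.1), Cox6b1 (709 ± 54.1) and Cox6c (652 ± 29.5) led and Cox7b (195 ± 10.2) was lowest. Atp5b, the catalytic beta subunit of the ATP synthase, stood at 1805 ± 118, Atp5h at 655 ± 43.7, Atp5g3 at 651 ± 33.5 and Atp5l, the lowest, at 125 ± 22.2. Between the pools the nuclear lists had median relative log2 ratios of -0.04 (complex I), -0.08 (III), -0.05 (IV) and -0.02 (V).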

How the data were processed

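The authors deposited, for each library, a gene table and a transcript table with expected counts (estimated counts that need not be whole), TPM, FPKM, posterior mean counts with their SD and, in the transcript table, an isoform percent; interval bounds around TPM are deposited as a signal, without their confidence level in the file headers. The assembly was mm10 per the labels, and a readme gives annotation M4; no source used here names the aligner, the counter or the strand setting. Symbols and GRCm38 coordinates (1-based) came from GENCODE vM21: 42462 of 43346 identifiers matched, and the lengths of all 37 members were those in the tables.

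Nuclear copies were sought with BLAST 2.17.0 (E-value at most 1e-05) among annotated transcripts, in place of the genome foreseen in the design. Reads of copies at 99% identity or more were added to their gene, a step chosen after seeing the data. A gene plus copy TPM is the gene's TPM times the ratio of summed to own reads. TMM (edgeR 4.0.16) and DESeq2 1.42.0 size factors, on expected counts rounded to whole numbers, served as alternatives. Tables were handled in Python 3.11.15 with pandas 2.3.3 and NumPy 2.4.6, intervals came from SciPy 1.17.1 and factors from R 4.3.3.

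The 37 members follow from their symbols. They and the gene lists were chosen with earlier results of these data known. In each nuclear list the 3 most abundant genes and the lowest are named, and of the nuclear copies the 5 with the most reads; Gm10222, Gm28439 and the marker genes over 1.5-fold apart, with Sox2, were named after their values were seen. An item that this rule would name is not reported here.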

Additional observations from a re-analysis of the deposited data

How the results depend on the processing

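No paired analysis was possible because the series holds 1 group of 2 libraries and no test. Without either replicate, values ran from 1.10% to 1.32% for the mitochondrial share, 175 to 307 for the highest over the lowest mRNA, 2.21 to 2.40 for complex V over complex I, 0.121 to 0.147 for rRNA over mRNA, 0.333 to 0.391 for mt-Nd6 and 171664 to 176223 for reads on nuclear copies.

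The mean share of 1.21% became 1.43% against protein-coding nuclear genes, 2.39% of TPM, 0.955% for mRNAs alone and 1.62% with copies. The highest over the lowest mRNA was 18.6 with copies and 90.3 by posterior mean TPM. Complex V over complex I, 2.31 by summed TPM, was 13.7 by medians, 1.81 by annotated length, 1.24 without mt-Atp8 and mt-Nd4l and 1.96 with copies. The rRNA to mRNA ratio of 0.134 was 0.269 by expected counts, 0.156 by annotated length, 0.108 for mt-Rnr2 alone, 2.76 against the median mRNA and 0.0928 with copies. mt-Nd6 stood at 1.09 against mt-Nd5 and 0.182 with copies.

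Scaled to the spike-ins, without taking off the median gene (-0.52 on that scale), the median pool ratio of the members was -0.25. It ran from 0.21 to 0.35 under the other scalings, pseudocount and filters and with copies. The scalings by TMM, by DESeq2 and by protein-coding TPM took off no median gene either. The count of members over 1.5-fold apart was 1 in the report. It was 2 with a pseudocount of 0.1, relative to protein-coding genes, with TPM rescaled over them or with a filter of 5 TPM. It was also 2 when scaled to the spike-ins, again without taking off the median gene, and 0 with TMM, at 2-fold or with copies. In the first 4 of these mt-Nd6 passed 1.5-fold towards pool 2. The cause of these changes was not tested.

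Leaving out a library was not run for the pool ratios and the nuclear lists, whose ratios need both. With 2 libraries the SDs are themselves imprecise, and the division of reads within 5 of the 7 pairs (those of mt-Co2, mt-Atp6, mt-Co3, mt-Nd3 and mt-Nd4l) limits the levels of those genes more than depth does.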
